A study of Mus musculus with 8 samples.

Results

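Insr, Igf1r, Irs2, Foxo1, Pik3r3 and Sesn3 encode the insulin receptor, the IGF-1 receptor and 4 proteins that act downstream of them. These 6 genes were measured by 12 probe sets, and they are 6 of the 1396 genes that the authors' deposited table of changed probe sets names by a single symbol. They were taken by exact symbol from that table, and their signals were read from the deposited values of all 8 arrays. The table lists only probe sets with an absolute fold of at least 1.5 and an unadjusted p under 0.05 in the same comparison. A gene of the pathway without such a probe set therefore had no name here. A further probe set of a member outside that table, if the array holds any, could not be found either. The fact that the members differ between groups was set in part by the listing.

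The tissue was newborn mouse epidermis, separated from the dermis, of the strain C57Bl/6. Of the samples, 4 carried the genotype IR-/-, IGF-1R-/-, called dKO, and 4 were wild type, called control. The labels name no Cre line, no promoter and no cell type for the deletion, and they do not say whether 1 sample is 1 animal. RNA was hybridised to Affymetrix Mouse 430 2.0 arrays, on which a probe set is a group of short probes that together give 1 signal.

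Insulin and the IGFs bind receptor tyrosine kinases on the cell surface, and the active receptors phosphorylate docking proteins such as Irs2. The docking proteins recruit phosphatidylinositol 3-kinase (PI3K) through its regulatory subunits, of which Pik3r3 is 1, and the lipid made by PI3K activates the kinase Akt. Akt keeps the transcription factor Foxo1 out of the nucleus and raises mTORC1 activity, and Sesn3, a sestrin, restrains mTORC1. FoxO factors are known to raise transcription of Insr, Irs2 and Sesn3 in several mouse and human tissues when insulin signalling is low. In skin the pathway is known for its part in the growth and stratification of the epidermis and in hair follicle development.

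Of the 12 probe sets, 10 were lower and 2 were higher in dKO. Past an adjusted p of 0.05, 9 fell and 0 rose (limma, p adjusted by Benjamini and Hochberg over 45032 probe sets, as is every limma p given here), and all 12 had an unadjusted p under 0.05. Of all probe sets tested 2.25% passed the same threshold, 1.25% lower and 0.993% higher. In 12 of 12 probe sets the dKO and control arrays did not overlap, which was so for 9.37% of all probe sets, 5.93% lower and 3.44% higher. Because the listing used this comparison, nothing is read from these counts. The median log2 difference of the 12 was -0.84, against -0.068 over all probe sets. Nothing is read from these medians either, as the listing required an absolute fold of at least 1.5. Without the intensity trend in the variance model 0 of the 12 passed in limma (adjusted p between 0.0662 and 0.232). All 12 had an unadjusted p under 0.05 there too, which is no support, because the listing itself required such a p.

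**Figure D1:**
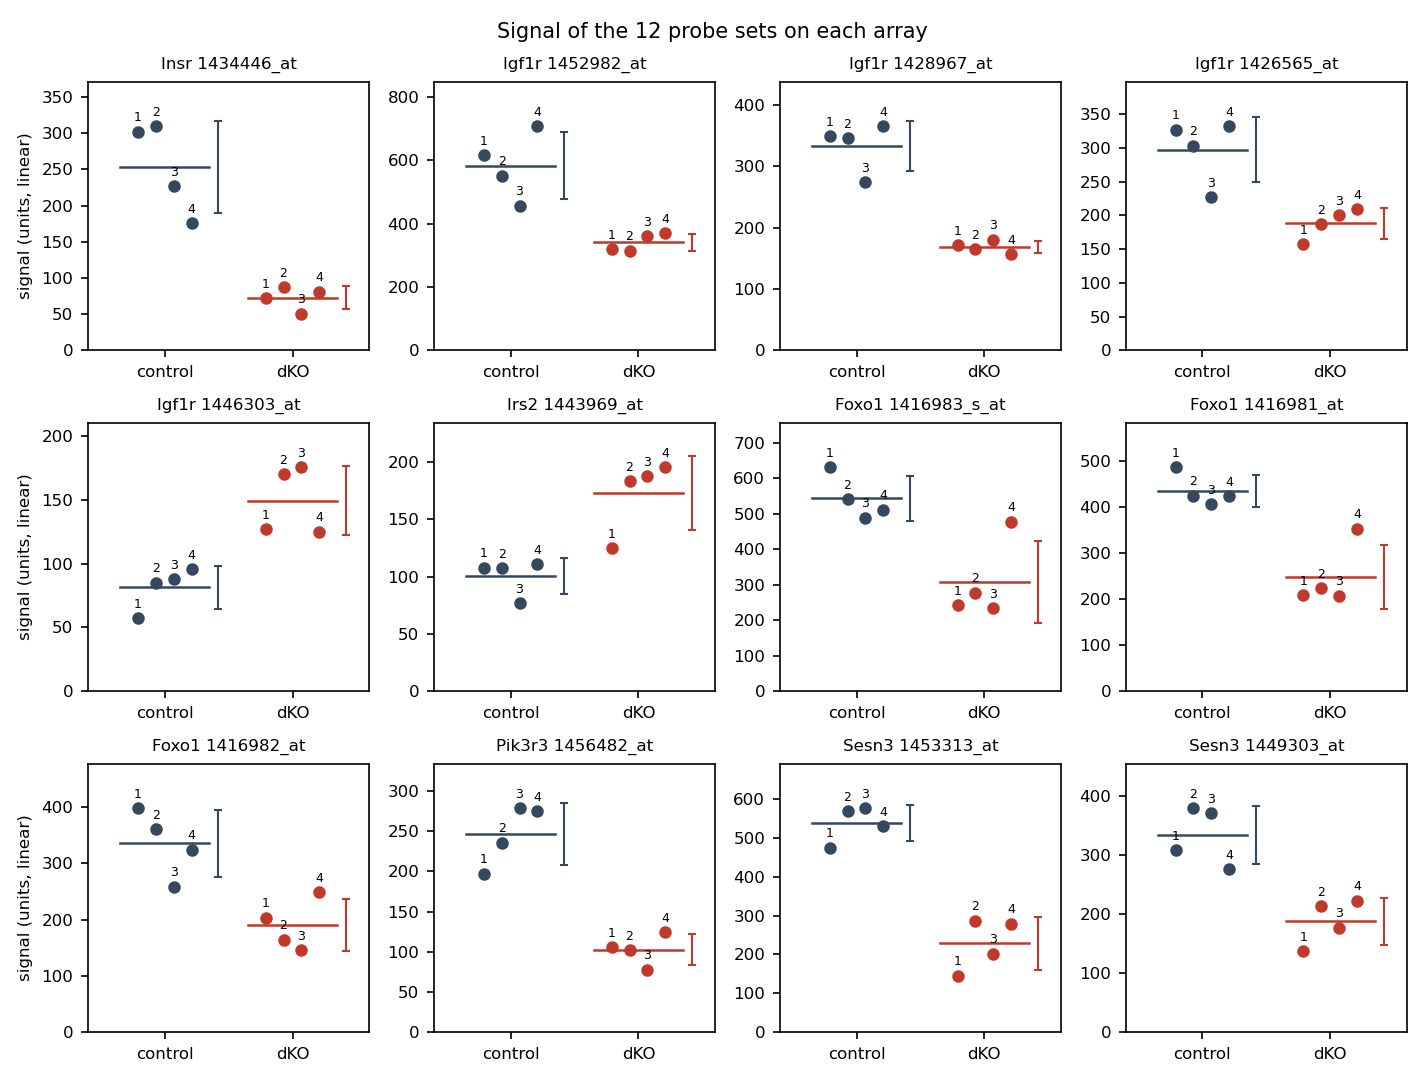
Signal in linear units of each of the 12 probe sets on every array, with each panel starting at 0. Points are arrays with their replicate number, the line is the group mean and the bar beside it the SD (n = 4). In every panel the dKO points (red) lie on 1 side of the control points (blue), and for Foxo1 dKO replicate 4 lies nearest to the controls.

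The 4 control arrays gave Insr (probe set 1434446_at) signals of 301.9, 309.6, 226.6 and 176.1 units for replicates 1 to 4. The dKO arrays gave 71.9, 87.6, 50.7 and 80.9 units. The lowest control was 2.01 times the highest dKO array, the widest gap between groups among the 12 probe sets. The means were 254 ± 63.8 in controls and 72.8 ± 16.1 in dKO (SD, n = 4 each), and the transcript fell 3.47-fold, a log2 difference of -1.79 (SE 0.23, limma adjusted p = 0.00319). It ranked at place 68 of 45032 probe sets by p. The call held without any single array, with adjusted p up to 0.0183. Insr is a targeted gene of this genotype, and on every array its signal went with the label. Some signal remained in dKO, and the position of the probes relative to the deleted part is not stated in the sources used here.

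Igf1r, the target of the other deletion, had 4 listed probe sets, and they did not move as 1. Probe set 1452982_at read 615.3, 551.2, 456 and 707 units in controls and 319.1, 314.7, 359.6 and 369.1 in dKO, so that the highest dKO array lay below the lowest control, replicate 3. It fell by 0.76 on the log2 scale (SE 0.14, limma adjusted p = 0.0176), a call that ended without control replicate 1, control replicate 2 or dKO replicate 2 (adjusted p = 0.0753, 0.0517 and 0.0593). Probe set 1428967_at read 349.2, 345.9, 274.2 and 365.3 units in controls against 171.5, 164.8, 180.5 and 157.3 in dKO. The dKO arrays of this probe set were close together, with a mean of 169 ± 9.87 units against 334 ± 40.5 in controls (SD, n = 4 each). It fell 1.97-fold, a log2 difference of -0.98 (SE 0.14, limma adjusted p = 0.00438), and passed in all 8 fits that left out 1 array.

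The other 2 probe sets of Igf1r did not pass. In 1426565_at the signals were 326.8, 303.3, 226.9 and 331.8 units in controls and 157.3, 186.5, 200.4 and 209.1 in dKO. The groups were separated by a factor of 1.09 between control replicate 3 and dKO replicate 4, and the log2 difference was -0.65 (SE 0.16, limma adjusted p = 0.0597). This probe set passed without control replicate 3 (adjusted p = 0.0398) and among probe sets at or above the median signal (0.0403). Probe set 1446303_at went the other way, with 57.2, 84.9, 87.7 and 95.5 units in controls and 126.8, 169.6, 175.2 and 124.7 in dKO. Every dKO array lay above every control, with a log2 difference of 0.88 (SE 0.22, limma adjusted p = 0.061). It passed with quantile normalization (adjusted p = 0.0395), with median centring (0.032), without both arrays numbered 4 (0.049) and among probe sets at or above the median signal (0.0381).

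To compare the Igf1r probe sets with each other, each was set against 1452982_at on the same array. The log2 ratio of 1446303_at to 1452982_at was -2.85 ± 0.44 in controls and -1.21 ± 0.30 in dKO (SD, n = 4 each), a shift of 1.64 with no overlap between the groups. The exact two-sided permutation test gave p = 0.0286, the smallest value that 4 against 4 arrays allow, and adjusted p = 0.0857 over the 3 ratios. The authors' table listed 1446303_at as higher and 1452982_at as lower, and neither had overlapping groups. Their ratio therefore had to separate the groups, and nothing further is read from this p. A single ratio at this smallest p cannot come below an adjusted p of 0.0857 when 3 are tested. For 1428967_at the shift was -0.22 and for 1426565_at 0.11, with exact permutation p of 0.0857 and 0.2 (adjusted p = 0.129 and 0.2, two-sided, n = 4 each). Once each group was centred on its mean, the 3 probe sets that were lower in dKO correlated with each other at r of 0.67 to 0.88 over the 8 arrays and with 1446303_at at -0.09 to 0.02, given as a description. Which transcript or part of the gene each probe set reads is not stated in the sources used here.

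**Figure D2:**
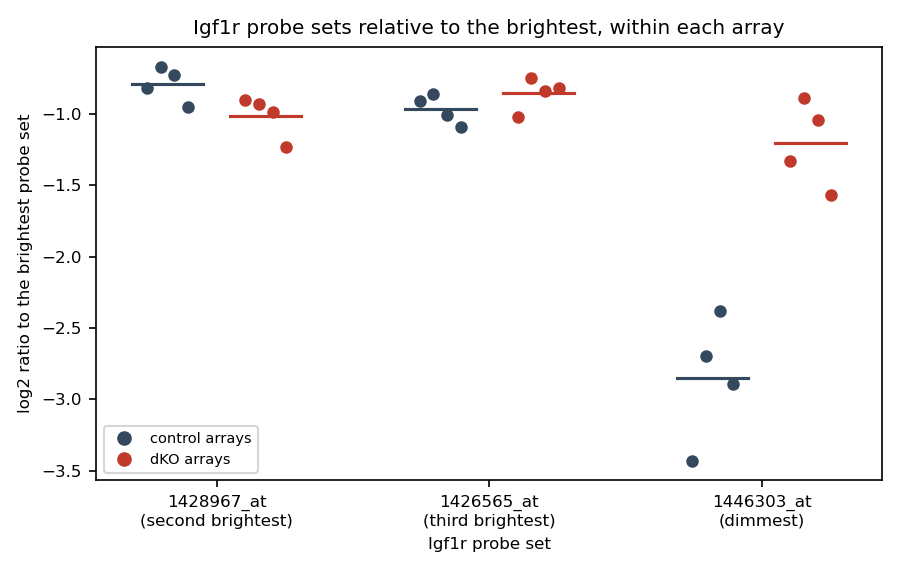
Log2 ratio of 3 Igf1r probe sets to the Igf1r probe set 1452982_at on the same array, with 1 point per array and a line at the group mean (n = 4). The ratios of 1446303_at lie between -3.43 and -2.38 in controls (blue) and between -1.57 and -0.89 in dKO (red), and for the other 2 probe sets the groups overlap.

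Irs2, the docking protein that links both receptors to PI3K, was read by 1 listed probe set, 1443969_at. Its signals were 108.1, 107.4, 77 and 110.8 units in controls and 124.9, 183.3, 187.7 and 195.5 in dKO. Every dKO array was above every control, and dKO replicate 1 lay nearest to them. The means were 101 ± 16.0 and 173 ± 32.4 units (SD, n = 4 each), and the log2 difference of 0.77 (SE 0.20) did not pass (limma adjusted p = 0.0756). It passed without dKO replicate 1 (adjusted p = 0.0275), with quantile normalization (0.0423), with median centring (0.0407) and among probe sets at or above the median signal (0.0469). Irs2 was the only member whose single or brightest probe set was higher in dKO.

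Pik3r3, the p55 regulatory subunit of PI3K, gave 196.9, 235.4, 278.2 and 274.6 units in controls and 106.1, 102.4, 77.6 and 124.2 in dKO with probe set 1456482_at. The lowest control was 1.59 times the highest dKO array. The means were 246 ± 38.2 and 103 ± 19.2 units (SD, n = 4 each), and it fell 2.41-fold, a log2 difference of -1.27 (SE 0.19, limma adjusted p = 0.00541). The call held without any single array, with adjusted p up to 0.0268. The authors' deposited table gives a ratio of 0.334 for this probe set, and the value table gave 0.415, the widest gap of the 12.

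The other regulatory subunits named here, Pik3r1 and Pik3r2, differed by -0.70 (SE 0.18) and -0.56 (SE 0.14) on the log2 scale and did not pass (limma adjusted p = 0.0725 and 0.0669). Pik3r1 passed without control replicate 4 (adjusted p = 0.0231) and Pik3r2 without dKO replicate 4 (0.0197) and among probe sets at or above the median signal (0.048). The log2 ratio of Pik3r3 to Pik3r1 within an array shifted by -0.57 between groups and that of Pik3r3 to Pik3r2 by -0.71, with exact two-sided permutation p of 0.171 and 0.0571 (n = 4 each; adjusted p = 0.171 and 0.0857 over 3 ratios chosen after the values were seen). A larger fall of Pik3r3 than of the other subunits was thus not shown.

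Foxo1, the FoxO transcription factor that Akt restrains, was lower in each of its 3 listed probe sets, and an unchanged probe set would not have been listed. Probe set 1416983_s_at read 630.3, 541.2, 488 and 511 units in controls and 242.8, 277.1, 234.2 and 477 in dKO. Probe set 1416981_at read 485.4, 424, 405.9 and 422.7 units in controls and 208.1, 223.6, 207.3 and 352.3 in dKO. In 1416982_at the controls gave 398, 361.4, 258.7 and 324.2 units and the dKO arrays 203.7, 164.8, 145.6 and 248.6. In all 3 probe sets dKO replicate 4 was the highest dKO array, and the gap to the lowest control, replicate 3, was narrow, with factors of 1.02, 1.15 and 1.04.

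The log2 differences of the 3 Foxo1 probe sets were -0.88 (SE 0.20), -0.84 (SE 0.17) and -0.83 (SE 0.19), in the same order, with limma adjusted p of 0.0455, 0.0253 and 0.0444. These calls depended on single arrays. That of 1416983_s_at held without dKO replicate 4 alone (adjusted p = 0.0019) and ended without any other array (0.0676 to 0.157), and with the replicate number as a block (0.0622). That of 1416981_at ended without control replicate 1, 2 or 3 or dKO replicate 2 or 3 (adjusted p = 0.101, 0.0739, 0.063, 0.08 and 0.0875). That of 1416982_at held without control replicate 3 (0.0477) and dKO replicate 4 (0.0173) and ended without each of the others (0.0509 to 0.158). Median centring ended all 3 calls (adjusted p = 0.0793, 0.0509 and 0.121), and adding 32 to each signal or quantile normalization ended those of 1416983_s_at and 1416982_at (0.0563 to 0.0631). The 3 probe sets moved together within groups (r of 0.75 to 0.99 over 8 arrays after centring). Without dKO replicate 4 the log2 differences were -1.11, -1.03 and -0.97.

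Sesn3 fell in both of its listed probe sets, and here too an unchanged probe set would not have been listed. Probe set 1453313_at read 474.1, 567.2, 575.1 and 529.8 units in controls and 145.7, 286.2, 201.8 and 279.4 in dKO, and the lowest control was 1.66 times the highest dKO array. It fell 2.43-fold, a log2 difference of -1.28 (SE 0.20, limma adjusted p = 0.00627), and the call held without any single array (adjusted p up to 0.03). Probe set 1449303_at read 308.2, 378.5, 369.8 and 276.1 units in controls and 137.1, 213.5, 176.7 and 222.4 in dKO. It fell by 0.84 (SE 0.18, limma adjusted p = 0.0301), and this call ended without control replicate 1, 2 or 3 or dKO replicate 2 or 3 (adjusted p = 0.0848, 0.102, 0.0971, 0.0519 and 0.0918) and with median centring (0.0559). Replicate 1 was the lowest dKO array in both probe sets and replicate 3 the second lowest. The log2 ratio of 1453313_at to 1449303_at was 0.70 ± 0.16 in controls and 0.26 ± 0.15 in dKO (SD, n = 4 each). The two-sided exact permutation test of this shift gave p = 0.0286 (adjusted p = 0.0857 over the same 3 ratios). In the authors' deposited table the ratios of both are close, at 0.456 and 0.457, whereas the value table gave 0.412 and 0.557.

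**Figure D3:**
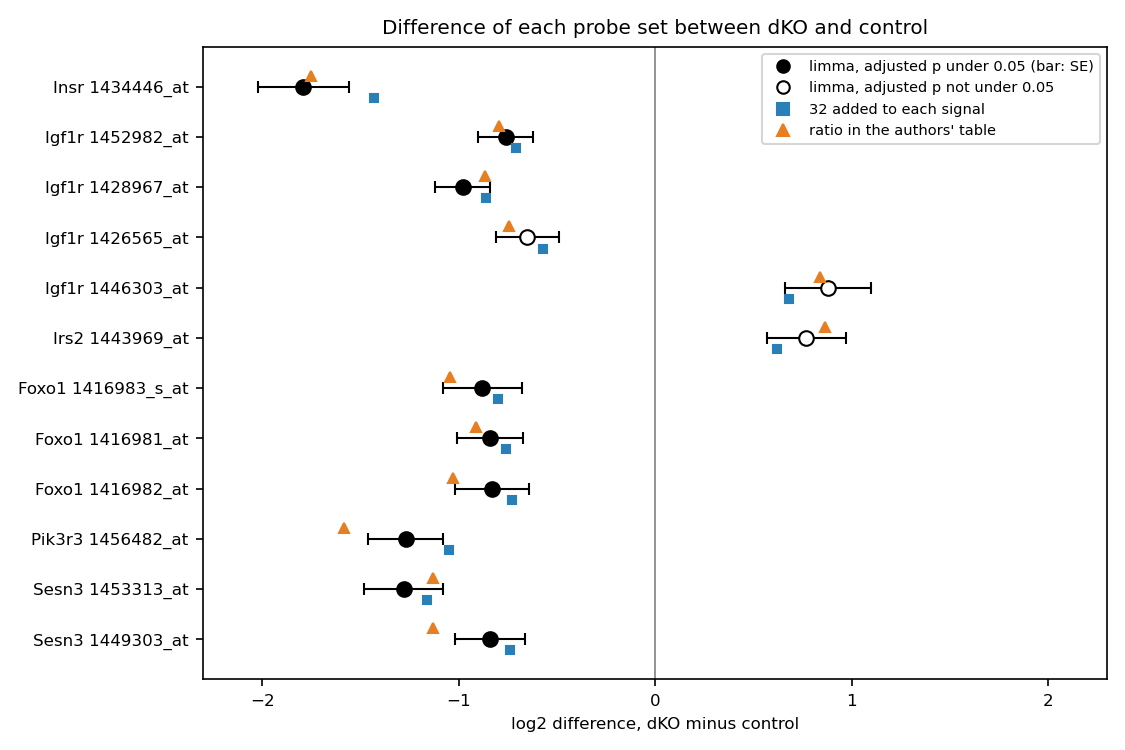
Log2 difference, dKO minus control, of each probe set. Circles with SE bars are the limma estimates (filled where adjusted p is under 0.05), squares the estimates after 32 was added to each signal, and triangles the ratios of the authors' deposited table. Insr stands lowest at -1.79, and the values above 0 are those of Igf1r 1446303_at (0.88) and Irs2 (0.77).

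In the authors' deposited table the 12 probe sets had the same direction as in the value table. Nearest to the limits of that table were Igf1r 1426565_at, with a fold of -1.68, and Irs2, with an unadjusted p of 0.0327. On the log2 scale the authors' ratios differed from those of the value table by between -0.31 and 0.15. The normalization behind them is not stated in the sources used here.

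RefSeq promoter entries (GRCm38.p6) were at hand for 5 of the 6 members, all but Insr, with 7 start sites in all, 3 of them of Pik3r3. The 250 bases before each start were searched on both strands for GTAAACA, the FoxO consensus, and for CAAAACA, the insulin response element to which FoxO factors also bind. GTAAACA was in 0 of the 7 and in 3.17% of all 32851 promoter entries. CAAAACA was in 1 of the 7, that of Irs2, and in 5.56% of all entries. The 100 bases before the start are shown for Irs2 and for 3 members that fell by their brightest probe set. Irs2 was higher in dKO but did not pass, and Igf1r is itself a deleted gene. Whether a match goes with the direction of a difference was not tested. The match is in capitals (on the opposite strand, it reads CAAAACA). The match covers the bases from 37 to 31 before the start of Irs2, and no match of either motif was in the 250 bases of the other 3.
Irs2 (chr8:11008930-11009029, minus strand): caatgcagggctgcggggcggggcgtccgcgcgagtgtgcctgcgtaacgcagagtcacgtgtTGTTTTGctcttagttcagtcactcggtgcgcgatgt
Sesn3 (chr9:14276201-14276300, plus strand): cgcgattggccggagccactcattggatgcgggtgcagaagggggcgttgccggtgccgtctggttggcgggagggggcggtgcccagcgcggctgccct
Foxo1 (chr3:52268237-52268336, plus strand): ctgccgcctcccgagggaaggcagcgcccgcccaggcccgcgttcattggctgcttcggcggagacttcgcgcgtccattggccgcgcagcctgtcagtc
Igf1r (chr7:67952157-67952256, plus strand): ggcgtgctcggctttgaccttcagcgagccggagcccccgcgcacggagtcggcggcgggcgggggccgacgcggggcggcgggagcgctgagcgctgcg
These stretches held 62% G or C bases in Irs2, 73% in Sesn3, 72% in Foxo1 and 81% in Igf1r, against a median of 55% over all entries. A match describes the letters only and is not a measured binding site.

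Around the members, 8 lists of 116 genes of the insulin and IGF pathway were examined, of which 17 genes had a name here. By the brightest probe set of each gene 7 fell, 2 rose and 8 did not pass, and without the 6 members these counts were 2, 2 and 7. Of all probe sets tested 1.25% fell and 0.993% rose. The listing of names by the same comparison holds for all of these genes, so nothing is read from these counts or from those of the single lists. Among 4 named adaptors and inhibitors of the receptors, 2 fell and 2 did not pass, with a median log2 difference of -0.78. Grb14, an adaptor that inhibits the insulin receptor kinase, fell from 87.7 ± 11.8 to 25.0 ± 8.82 units (SD, n = 4 each), a log2 difference of -1.88 (SE 0.34, limma adjusted p = 0.0145). Its call ended without control replicate 1 or 2 (adjusted p = 0.0684 and 0.0523). Gab1, a docking protein of growth factor receptors, fell by 0.76 in its brighter probe set (SE 0.12, limma adjusted p = 0.00832). Controls gave 1450 ± 38.2 units for it and dKO 863 ± 152 (SD, n = 4 each), and the call held without any single array. Its other probe set fell by 0.60, a call that ended without control replicate 2 (adjusted p = 0.0589), without dKO replicate 3 (0.0549) and with median centring (0.0798). Enpp1, a membrane phosphodiesterase reported to inhibit the insulin receptor, differed by -0.80 and -1.62 on the log2 scale and did not pass (limma adjusted p = 0.363 and 0.0707).

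Of the 3 named genes of the PI3K group, Pik3r3 fell and 2 did not pass, with a median of -0.70. On the mTOR branch 3 genes had a name, and Sesn3 fell while Ddit4l, another restraint of mTORC1, rose. The control mean of Ddit4l was 33.6 ± 16.6 units and the dKO mean 105 ± 33.8 (SD, n = 4 each), with a log2 difference of 1.74 (SE 0.40, limma adjusted p = 0.0439). It was dim in controls, with 32 added the difference was 1.06, and 2 of the 8 fits without 1 array kept the call, those without control replicate 4 and dKO replicate 1 (adjusted p up to 0.138 in the others). Its other 2 probe sets differed by 2.04, which passed (limma adjusted p = 0.0303, up to 0.103 without 1 array), and by 1.56, which did not (0.131). Both calls that passed ended with the replicate number as a block (0.0803 and 0.0564). The ribosomal protein gene Rps6 differed by 0.44 and did not pass (limma adjusted p = 0.471).

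Dusp6, the phosphatase that switches off ERK kinases, was the named gene of the MAPK branch and rose by 1.54 (SE 0.30, limma adjusted p = 0.0195). Its dKO arrays were far apart, with 1482.7, 4460.3, 5077.9 and 3120.6 units against 993.7 to 1279.8 in controls. The call ended without control replicate 1, 2 or 3 or dKO replicate 2 or 3 (adjusted p = 0.0555, 0.0685, 0.062, 0.0613 and 0.0591) and with robust estimation of the variance (0.065). Igf2, the named ligand, differed by 0.73 with overlapping groups and did not pass (limma adjusted p = 0.384).

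Of 36 genes listed as FoxO targets 7 had a name, 4 fell by the brightest probe set (Insr, Igf1r, Sesn3 and Foxo1) and 3 did not pass. Insr and Igf1r are the deleted genes themselves. Of all probe sets tested 1.25% fell, and these 7 genes were named through the listing, so the count is a description. Besides Irs2, those that did not pass were Cat, the catalase, and Bnip3, a mitochondrial protein of autophagy. Cat differed by -0.89 in its brighter probe set (limma adjusted p = 0.0865), which passed with the replicate number as a block (0.0347) and without dKO replicate 4 (0.0268). It fell by 0.98 in the other one (limma adjusted p = 0.0419). Of the fits without 1 array, those without control replicate 2 and dKO replicate 4 kept this call (adjusted p up to 0.144 in the others), and it ended with 32 added (0.0568). Bnip3 differed by -0.76 (limma adjusted p = 0.173) and passed without control replicate 4 (0.0166). The median of the 7 was -0.88. Without the intensity trend none of the calls of Grb14, Gab1, Ddit4l, Dusp6 and Cat held in limma (adjusted p between 0.0786 and 0.237). With both arrays numbered 4 left out, Pik3r1, Pik3r2, Bnip3 and the brighter Cat probe set passed (adjusted p = 0.0252, 0.0129, 0.0165 and 0.0327), and the calls of Dusp6 (0.0521) and of the Ddit4l probe set at 2.04 (0.08) ended.

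**Figure D4:**
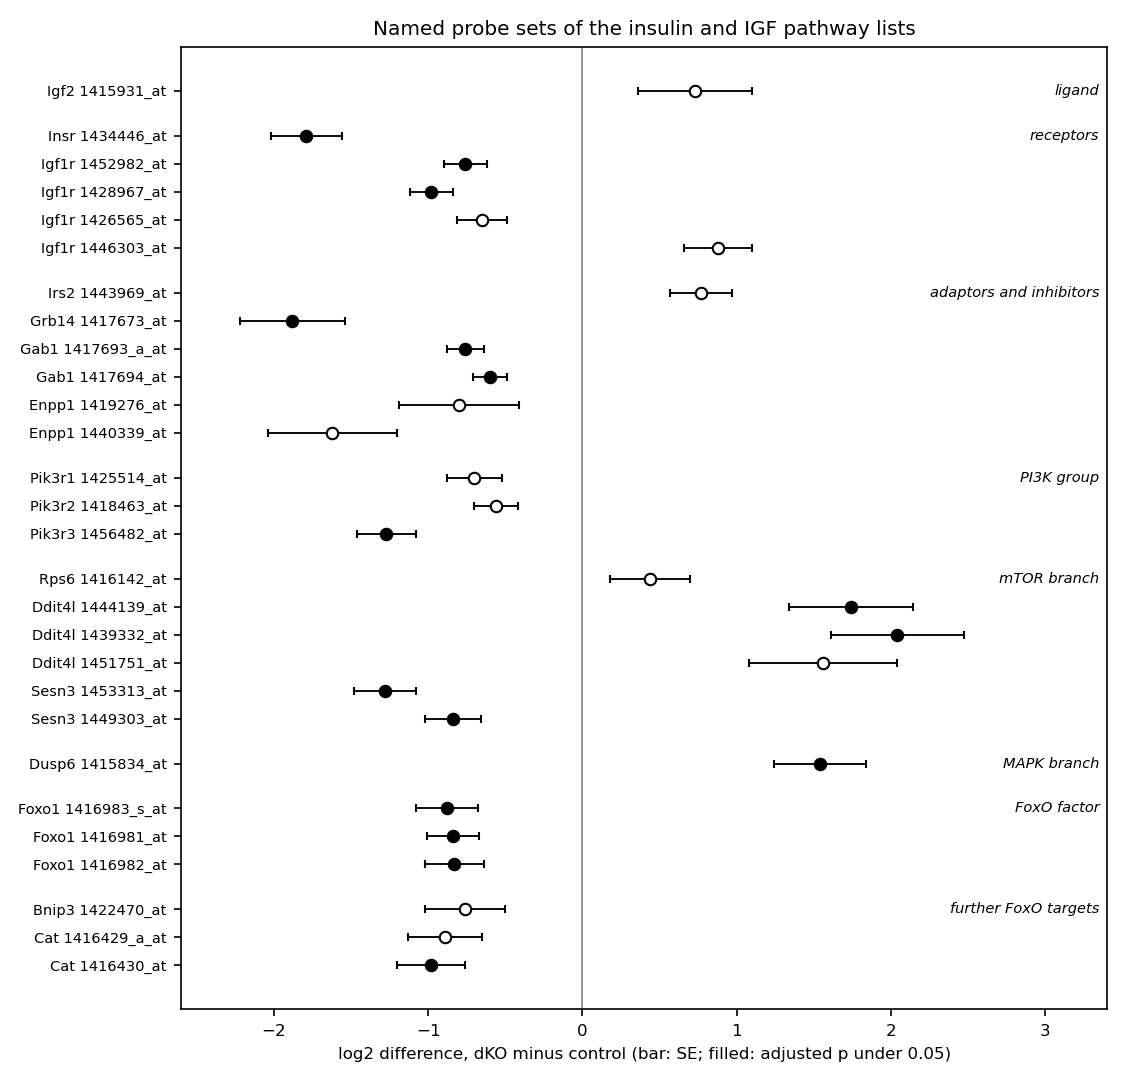
Log2 difference, dKO minus control, with SE of every named probe set of the pathway lists, grouped by role (filled where adjusted p is under 0.05). Probe sets of the receptors, adaptors and PI3K subunits lie mostly below 0, and Ddit4l and Dusp6 lie between 1.54 and 2.04.

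For each member the 2 named genes with the most similar pattern over the 8 arrays were taken by Pearson's r of log2 signal among up to 1621 named probe sets, and r after centring each group is given beside it. All points share the same arrays and the candidates were listed for a difference between these groups, so r over 8 arrays is high by construction and is given without p. Insr was most like Gas1 (r = 0.983, centred 0.84), a membrane protein that binds hedgehog ligands, and Ell3 (0.98, centred 0.81). Igf1r was most like Pak1 (0.988, centred 0.93), a kinase of the actin cytoskeleton, and Zfp617 (0.979, centred 0.94). Irs2 was most like Nt5e (0.973, centred 0.90), the ectonucleotidase that makes adenosine, and Wif1 (0.961, centred 0.88), a secreted Wnt inhibitor. Foxo1 was most like Neo1 (0.986, centred 0.96), a netrin receptor, and Mertk (0.984, centred 0.96), a receptor kinase for the clearance of dead cells. Pik3r3 was most like 7630402I04Rik and A030009H04Rik (0.987 and 0.985, centred 0.88 and 0.95). Sesn3 was most like Fam134b (0.988, centred 0.94), a receptor for autophagy of the endoplasmic reticulum, and the connexin Gjb5 (0.982, centred 0.90).

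Markers of other cell types differed between the groups as well, and in whole epidermis fewer cells of a type cannot be told apart from less RNA per cell. Of 12 myeloid and Langerhans cell markers 7 had a name, and their summed signal was 443 to 1696 units in dKO and 2221 to 3538 in controls. For 3 of 8 lymphocyte markers the sums were 86 to 229 and 418 to 537 units. Most of this sum was Coro1a, with a mean of 130 units in dKO and 313 in controls. Cd3d gave 3.83 and 59.1 units and Cd3g 27.2 and 113. The sums of 11 of 12 hair and sebaceous gland markers were 1134 to 4235 units in dKO and 5500 to 24728 in controls, and controls 1 and 4 were highest. For 4 of 10 fibroblast markers the sums were 2441 to 3991 and 1516 to 2147 units, and for 2 of 5 erythroid markers 164 to 456 and 43.3 to 70.6. Most of the fibroblast sum was Sparc, with a mean of 2593 units in dKO and 1546 in controls. Of the other fibroblast markers none passed, and Col5a1 and Fbn1 were higher in dKO while Fap was lower (39.8 against 92.3 units). Of 5 adipocyte markers 2 had a name, with 13.0 to 49.2 and 56.4 to 320 units, and the 4 Merkel cell markers summed to 87.8 to 121 and 169 to 388. Single named markers of muscle (Tpm2), Schwann cells (Mbp) and melanocytes (Tyrp1) gave 1586 to 3126 and 455 to 845, 32.9 to 41.3 and 12.4 to 20.8, and 629 to 1237 and 337 to 810 units. Probe sets that read 0 on some array had been left out beforehand, so a signal above 0 in the summed ones does not show detection. Some were very dim in dKO, such as Krt33a with 1.0 to 24.4 units and Cd3d with 2.9 to 5.4. Of 4 endothelial markers 0 had a name. Of 16 keratinocyte markers 5 had a name (Krt15, Krt77, Itga3, Tgm1 and Grhl3), summing to 10257 to 16508 units in dKO and 12761 to 17552 in controls, and the other 11 were not analysed here. These overlapping sums held changes in both directions: Krt77, Tgm1 and Grhl3 rose by 2.21, 0.80 and 0.76 on the log2 scale, Krt15 fell by 1.66 (limma adjusted p = 0.00846, 0.0193, 0.0228 and 0.00136), and Itga3 did not pass. By the brightest probe set, 10 of the 11 hair and sebaceous markers, 5 of the 7 myeloid, 3 of the 3 lymphocyte and 1 of the 2 adipocyte markers (Pparg, which is also in the hair and sebaceous list) fell past the threshold. Sparc of the 4 fibroblast markers, Alas2 of the 2 erythroid markers and Tpm2 rose. The 4 Merkel cell markers, Tyrp1 and Mbp did not pass by this measure. A dimmer Krt8 probe set, 1423691_x_at, did pass, with a log2 difference of -1.29 (limma adjusted p = 0.0262), and 4 of the 8 fits without 1 array kept this call. The dimmest Krt8 probe set and the dimmer Sparc probe set did not pass (limma adjusted p = 0.119 and 0.0567). Of all probe sets 1.25% fell and 0.993% rose, and the markers, like the members, were named through the listing by this comparison. The part of these cell types in the differences of the members was not tested.

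Within groups, the order of the arrays in these sums went with that of some members in 1 group and not in the other. Among controls Igf1r 1452982_at had the order of the hair and sebaceous sum (replicates 4, 1, 2 and 3 from high to low) and Insr that of the lymphocyte sum (replicates 2, 1, 3 and 4). Among dKO arrays neither pair had the same order. Foxo1 and the myeloid sum were both highest in dKO replicate 4, but among controls the myeloid sum was highest in replicate 3, where all 3 Foxo1 probe sets were lowest. In dKO Sesn3 and the myeloid sum were both lowest in replicate 1 and next lowest in replicate 3, and among controls their orders differed. With 4 arrays a group and many pairs of orders, these matches are a description.

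**Figure D5:**
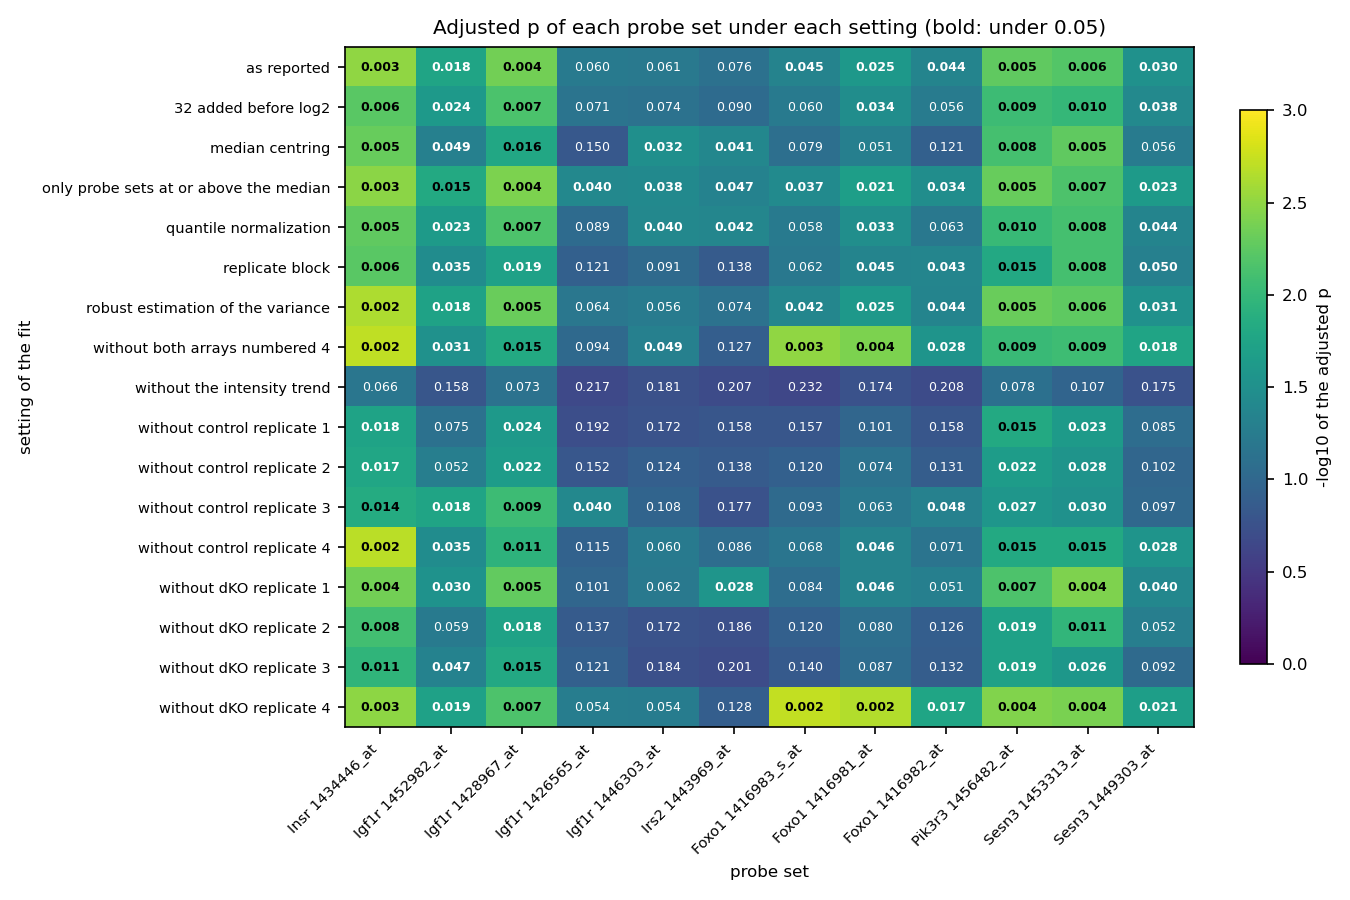
Adjusted p of each of the 12 probe sets (columns) under the fit as reported and 16 alternative settings (lines), coloured by -log10 of the adjusted p, with values under 0.05 in bold. Insr, Igf1r 1428967_at, Pik3r3 and Sesn3 1453313_at stay under 0.05 in each setting but that without the intensity trend.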

How the data were processed

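The values deposited for the arrays are intensities in linear units, 1 for each probe set. The programs known per the submitters' processing notes are MAS5 and Partek, with no version or role. The 2% trimmed mean was 250 on every array. Per the file headers, the authors' deposited table gives a ratio, a signed fold used as a score with an F statistic, and an unadjusted p-value. It was used for gene symbols and for the ratios credited to it.

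From 45101 probe sets the 64 Affymetrix control sets were removed, and so were 5 that read 0 on some array. Log2 signals, made here from the deposited intensities, were compared without offset or further normalization by limma 3.58.1 in R 4.3.3 (lmFit, then eBayes with its trend option). The model held genotype alone, with Benjamini-Hochberg adjustment over 45032 probe sets. "Rose" and "fell" mean an adjusted p under 0.05. Within-array ratios were tested over all 70 assignments of the arrays with scipy 1.17.1. The procedure was checked on simulated data with independent noise for each probe set, which does not cover effects shared by the probe sets of an array. The limma p values set the difference between groups against the spread between these samples, moderated over all probe sets. The number of arrays limits precision. Median signals of the arrays lay between 40.7 and 51.7 units.

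All listed probe sets of the members are named, and for each pathway list up to 4 further genes by p, with the 2 genes most like each member. The members and the lists were chosen with earlier results of these data known. Every gene name comes from the authors' table, in which 71 probe sets had several symbols, 130 none and 2 a symbol turned into a date. Alternatives are the variance model, normalization, an offset of 32, a filter on dim probe sets, the replicate number as a block and single arrays left out. Leaving out both arrays numbered 4 was added after seeing the data, as were the ratios of Pik3r3 and Sesn3. Protein motifs that had been planned were not searched. A listed pathway gene is not reported here and is in no count of the lists. Same-numbered arrays were not taken as pairs.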

Additional observations from a re-analysis of the deposited data

Results flagged for a closer look

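Among 24 groups of 4 arrays, 2 had an array far from the other 3, and chance gives about 1 in 20 groups. Irs2 read 77 units in control replicate 3, and the other controls read 107.4 to 110.8. Foxo1 probe set 1416981_at read 352.3 units in dKO replicate 4, and the other dKO arrays read 207.3 to 223.6. Neither value reached the other group, and whether anything in the handling of these arrays goes with them was not tested.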

How the results depend on the processing

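Over 16 alternatives, 192 member values were computed: 0 changed direction, 138 kept their side of the threshold, 44 lost the call and 10 gained it. Leaving out arrays could not change a direction, as the groups did not overlap in any of the 12 probe sets. The variance model, the replicate block and the filter on dim probe sets leave the difference as it is. The number of member probe sets past the threshold was 9, and 4 to 9 when single arrays were left out. Over all probe sets the count was 1012 (447 higher), and 353 to 1417 without single arrays. It was 4 for the members without control replicate 1, control replicate 2 or dKO replicate 2 and 5 without dKO replicate 3. Over all probe sets it was 353 without control replicate 1, 431 without control replicate 2, 529 without control replicate 3, 508 without dKO replicate 2 and 438 without dKO replicate 3. Without the intensity trend the limma counts were 0 of the members and 60 of all. The 12 at an unadjusted p under 0.05 in that fit had been listed by such a limit. Without both arrays numbered 4 the counts were 10 and 1525. Median centring moved the median of all probe sets by 0.125, turned the split to 607 higher and 322 lower, and left 7 members past the threshold. With the replicate number as a block 8 members and 698 probe sets passed. Deviations of same-numbered arrays correlated at -0.127 to 0.045, and 1 of 8 arrays correlated best with its own number, so the numbers were not taken as pairs. The shifts of the Igf1r ratios kept their direction with 32 added and without single arrays. Dim signals near background limit what the array shows, and no detection calls were used.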
